A study of Rattus norvegicus with 6 samples.

Results

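The homeobox cluster genes (Hox genes) of rat lumbar ganglia were examined as a set of 34 genes. A member was a symbol made of Hoxa, Hoxb, Hoxc or Hoxd and a number that stood alone in the deposited annotation of a coding transcript cluster, the unit in which the array summarises its probes. Of the 68842 transcript clusters on the array, 24753 were coding, 50 of those carried such a symbol, and the cluster with the highest mean over the 6 arrays stood for each symbol. The HoxA cluster gave 9 members, HoxB 10, HoxC 8 and HoxD 7. Dorsal root ganglia were taken from male Sprague-Dawley rats that weighed 180 to 220 g before allocation. The 3 diabetic rats had received 1 intraperitoneal dose of 65 mg/kg streptozotocin, a compound toxic to pancreatic beta cells, and the 3 control rats citrate buffer. A treated rat stayed in the study if its non-fasting glucose was at least 16.7 mM after 1 week, so the model is chemically induced insulin deficiency. The ganglia of lumbar levels 3 to 6 of both sides were pooled within each rat 8 weeks after the injection, and each array therefore holds 1 animal and no single lumbar level.

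Hox genes encode transcription factors that sit in 4 chromosomal clusters, and the order of the genes along a cluster follows the order in which they are switched on along the head-to-tail axis of the embryo. Genes of low paralogue number pattern the hindbrain and neck, central ones the trunk, and those of high number the lumbar, sacral and tail levels and the limbs. In mouse, part of this positional code stays on in postmitotic neurons, where Hox proteins act together with cofactors of the Pbx, Meis and Pknox families.

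All values are log2 signals. Array medians lay between 3.95 and 4.15, and arrays correlated at 0.993 to 0.997 over all clusters. Signals of different clusters depend on their probes and are not amounts of RNA, so each cluster was read against the 1153 intron control probe sets of the same array, and "above background" means above their 90th percentile. That level was 6.24, 6.18 and 6.67 on control replicates 1, 2 and 3 and 6.06, 6.27 and 6.07 on diabetic replicates 1, 2 and 3. Of 8 sensory neuron markers, 7 were measured, and all 7 were above background on every array. In bulk tissue, fewer cells of a type and less RNA per cell cannot be told apart.

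Taken by symbol, Hox signal in the lumbar ganglia was concentrated in central and posterior genes of HoxA and in the cluster taken for Hoxc9. The anterior Hoxd1 was an exception. Above background on all 6 arrays were 4 of 34 members, namely Hoxa6, Hoxa7, Hoxa9 and Hoxc9, against 35.9% of all coding clusters. A further 6 were above it on some arrays: Hoxa11 and Hoxd1 on 5, Hoxc10 on 3, Hoxc6 and Hoxd10 on 2 and Hoxd9 on 1. The other 24 were not above it on any array, so that a difference in them is a difference between dim signals. These 24 include all 10 members of HoxB, whose means ran from 3.53 for Hoxb13 to 5.37 for Hoxb2. By the paralogue number of the symbol, 0 of 8 anterior members (1 to 3) were above background on all arrays. Of the others, 2 of 12 central members (4 to 8) and 2 of 14 posterior members (9 to 13) were. The 2 posterior ones are Hoxa9, whose cluster is described as Hox-A7, and Hoxc9, whose cluster lies at the place of Hoxc8. Both clusters, as given below, may therefore measure central genes. Another cluster with the symbol Hoxa9, with a mean of 7.07, was also above background on all 6 arrays. The 6 members of paralogue groups 12 and 13, which pattern the tail end of the body, lay lowest among the posterior genes, with means of 3.10 to 3.72.

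**Figure D1:**
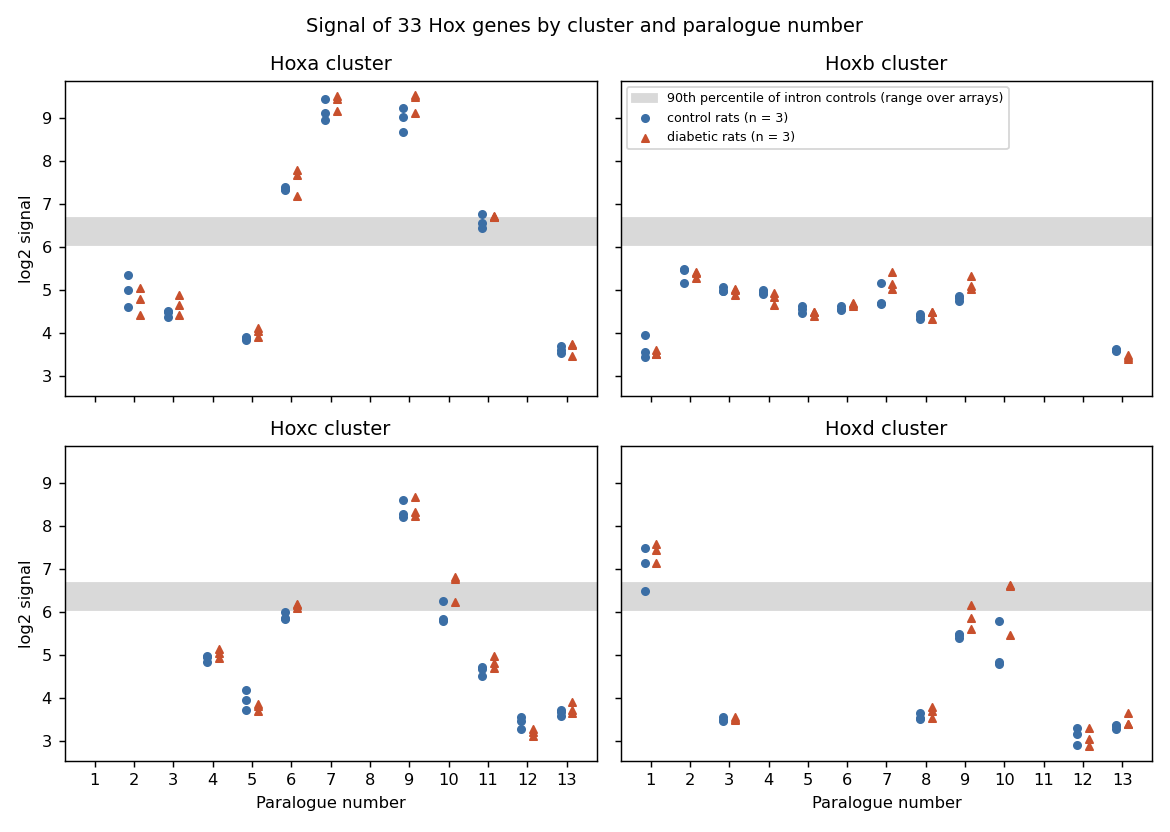
Log2 signal of 33 of the 34 Hox members (vertical axis) against paralogue number (horizontal axis), 1 panel per gene cluster; circles are the 3 control rats, triangles the 3 diabetic rats, and the grey band spans the 90th percentiles of the intron controls, 6.06 to 6.67. Hoxa6, Hoxa7, Hoxa9 and Hoxc9 lie above the band on all arrays, all of HoxB lies below it, Hoxc10 runs from below the band to above it, and Hoxd10 runs from below the band into it.

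Hoxa7, which in mouse contributes to the identity of the trunk vertebrae, had the highest mean of the 34 clusters. Its values were 9.12, 9.43 and 8.95 in control replicates 1, 2 and 3 and 9.43, 9.16 and 9.51 in diabetic replicates 1, 2 and 3. The groups overlapped, control replicate 2 and diabetic replicate 1 being level. The position of the cluster taken for Hoxc9, a gene that in mouse sets the thoracic identity of motor neurons, is that of Hoxc8, as given below. This cluster read 8.27, 8.21 and 8.61 in the controls and 8.23, 8.32 and 8.68 in the diabetic rats. Replicate 3 was the highest of each group, and the difference of 0.04 (SE 0.16) was smaller than the spread within either group, an SD of 0.21 in controls and 0.24 in diabetic rats (n = 3 each). Hoxa6, a trunk gene next to Hoxa7, read 7.35, 7.33 and 7.39 in the controls and 7.78, 7.19 and 7.67 in the diabetic rats. Diabetic replicates 1 and 3 were above every control, and diabetic replicate 2 was below them all.

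Hoxd1 stood out from the other anterior members. In mouse it is expressed in nociceptive sensory neurons and shapes how their fibres innervate the skin. Its signal was 7.14, 7.49 and 6.49 in the controls and 7.58, 7.14 and 7.44 in the diabetic rats. Control replicate 3, at 6.49, was the one array on which it did not pass the background of its own array, which was also the highest background of the 6. The diabetic mean of 7.39 ± 0.23 and the control mean of 7.04 ± 0.50 (SD, n = 3) overlapped in range, with a difference of 0.35 (SE 0.24, limma adjusted p = 0.717). The other 7 anterior members had means of 3.44 to 5.37 and were below background on all arrays. Among them, Hoxa2, which patterns the hindbrain and the skeleton of the second pharyngeal arch, varied most between arrays. It read 5.01, 4.61 and 5.36 in the controls and 4.41, 4.79 and 5.05 in the diabetic rats, which overlapped.

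For 3 of these clusters the symbol conflicts with the description, accession or position in the deposited annotation. The cluster taken for Hoxa9, on an unplaced contig of chromosome 4 at 85825 to 87504, carries the symbol Hoxa9 but is described in the same table as the protein Hox-A7, and the RefSeq gene table of the rat assembly GRCr8 lists Hoxa9 as a synonym of Hoxa7. On the contig this cluster lies between a cluster spelled HOXA6 (76449 to 78728) and another Hoxa9 cluster, described as protein Hoxa9 (94369 to 96333). Its description and its position are thus those of Hoxa7. The cluster taken for Hoxa11, on chromosome 4 at 82284943 to 82295601, has an accession that names Hoxa10, and the other 3 coding clusters with the symbol Hoxa11 had means of 3.15 to 3.85 against its 6.65. The cluster taken for Hoxc9, on chromosome 7 at 144605072 to 144608541, begins 6265 bases after the end of another Hoxc9 cluster that has a RefSeq accession. In GRCr8 the gene 6438 bases after Hoxc9 is Hoxc8, a trunk gene with no member here. The next Hox cluster to begin after the cluster taken for Hoxc9 is that of Hoxc6, at 144615080, so by position the cluster taken lies at the place of Hoxc8. The genome build of the deposited coordinates is not given in the sources used here, so the builds were compared through these distances only. Taking instead the brightest cluster whose own annotation names no other Hox gene, an alternative chosen after seeing the data, left 3 members above background on all arrays.

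Of the members, 10 had more than 1 coding cluster when capitals are ignored, and copies of a symbol differed in level. Hoxa7 had a mean of 9.27 in the cluster taken, which has no genome position in the table, and 6.02 in a cluster of 80 probes on chromosome 4. A cluster with the symbol Hoxa9 elsewhere on chromosome 4 had the same mean of 6.02. For Hoxa6, a cluster on the unplaced contig spelled HOXA6, which the symbol rule in its written capitals does not take, had a higher mean (8.12) than the cluster taken (7.45). It read 7.93, 7.89 and 7.86 in the controls and 8.61, 7.91 and 8.50 in the diabetic rats, with diabetic replicates 1 and 3 apart from the other 4 arrays. Hoxa5, which is needed for lung and neck development in mouse, had a mean of 3.95 in the member cluster, while a contig cluster without a symbol, described as the protein Hox-A5, had a mean of 8.20 and was above background on all 6 arrays. A cluster listed under a locus name that the RefSeq table assigns to Hoxa10 read 5.81, 6.13 and 6.14 in the controls and 6.32, 6.11 and 6.14 in the diabetic rats, near the background level. A contig cluster without a symbol, at 102866 to 105278, lies between the contig clusters of miR-196b and Hoxa11. Its description names no Hox gene, its mean was 8.78 and it was above background on all 6 arrays, so the level of Hoxa10 is not settled by the dimmer cluster. Hoxa4, Hoxa10, Hoxc8, Hoxd4 and Hoxd11 are the 5 of 39 Hox genes of the RefSeq table that had no member. Clusters can also span neighbours: that of Hoxd10 is 15550 bases long against 3210 for the RefSeq gene, and the stretch from the start of Hoxd11 to the end of Hoxd10 in RefSeq is 12763. The Hoxc4 cluster is 62571 bases long against 2543 for the RefSeq gene.

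**Figure D2:**
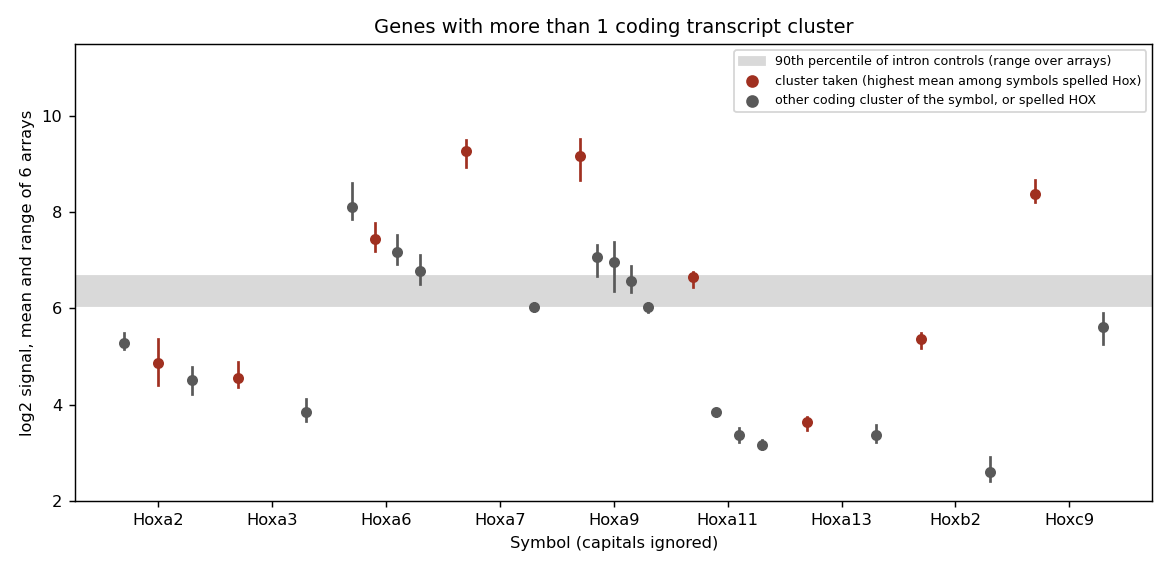
Mean log2 signal over 6 arrays (points) with the lowest and highest array (vertical lines) for each coding cluster of 9 of the 10 symbols that have more than 1, capitals ignored; red marks the cluster taken for the symbol and the grey band the 90th percentiles of the intron controls. Copies of Hoxa7 lie at 9.27 and 6.02 and copies of Hoxc9 at 8.39 and 5.61, and in Hoxa2 and Hoxa6 the brightest copy is spelled in capitals and is not the one taken.

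Between diabetic and control rats, no Hox gene passed the test over all clusters. At a limma adjusted p of 0.05, 0 of 34 members were called, where 0.00581% of all clusters and 0.0121% of coding clusters were, and the adjusted p-values of the members ran from 0.554 to 0.999. At an unadjusted limma p under 0.05, 5 members were higher in the diabetic rats (Hoxc6, Hoxb9, Hoxd9, Hoxc10 and Hoxd10), against 2.73% of all clusters and 4.1% of coding clusters. In the other direction 1 member was lower (Hoxc12), against 5.11% of all clusters and 3.35% of coding clusters. Both directions together held 6 of 34 members, against 7.85% of all clusters and 7.45% of coding clusters. With each array centred on its median, the counts were 8 higher and 0 lower, where 5.38% of all clusters and 7.1% of coding clusters were higher and 2.79% and 1.71% lower. The diabetic mean was higher in 24 of 34 members, against 38.2% of all clusters and 49.5% of coding clusters, and with centred arrays in 27 of 34, against 59.2% and 70.5%. The median difference of the members was 0.11, that of all clusters -0.04 and that of coding clusters 0.00. The 3 diabetic and 3 control arrays did not overlap in 5 members that were higher (Hoxa5, Hoxb9, Hoxc6, Hoxd9 and Hoxd13) and in 1 that was lower (Hoxb13). For comparison, 4.96% of all clusters and 8.21% of coding clusters did not overlap and were higher, and 8.32% and 6.91% did not overlap and were lower, which is 13.3% and 15.1% in either direction.

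By gene cluster, the median difference was 0.19 for HoxA, -0.02 for HoxB, 0.11 for HoxC and 0.14 for HoxD. By paralogue number it was 0.01 for the 8 anterior, 0.12 for the 12 central and 0.13 for the 14 posterior members. Within the posterior class the differences were not alike, a split made after seeing the data. All 8 members of paralogue groups 9 to 11, which pattern thoracic to sacral levels, had a higher diabetic mean (7 of 8 with quantile normalization), with a median difference of 0.37. Members are grouped by symbol, and the 8 include the clusters of Hoxa9, described as Hox-A7, and of Hoxc9, at the place of Hoxc8. The count and median may therefore include central genes. The 6 members of groups 12 and 13 divided into 3 higher and 3 lower, with a median of -0.01. Since the split was drawn from these differences, its counts and medians are a description, and no test of the difference between these groups was made.

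**Figure D3:**
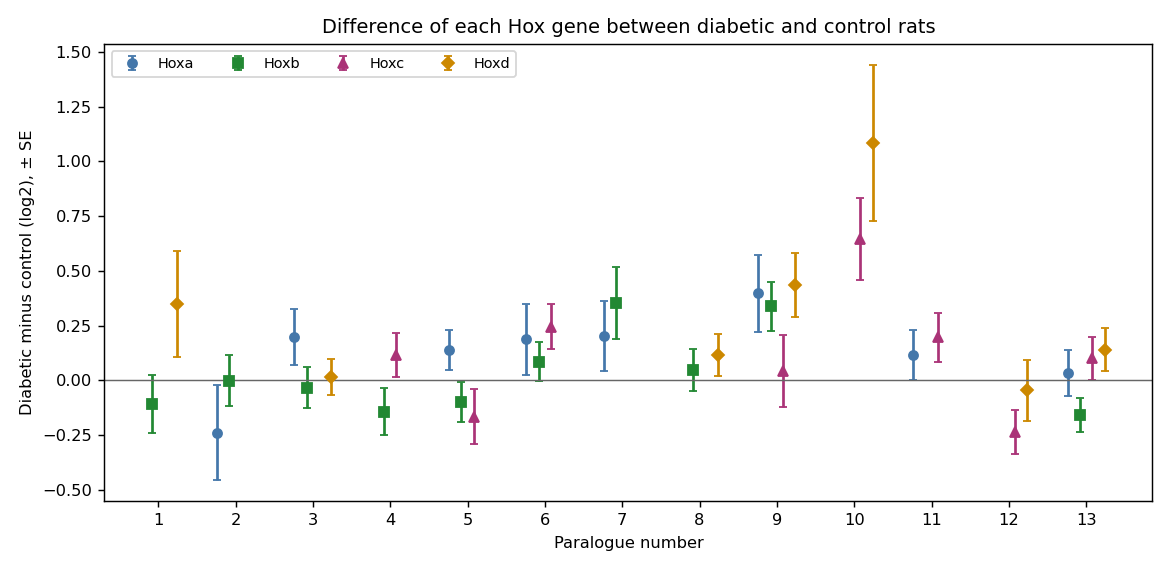
Difference between the diabetic and control means of 33 of the 34 Hox members (log2, vertical axis) with its standard error, against paralogue number (horizontal axis); colours and symbols mark the 4 gene clusters. Hoxd10 at 1.08 and Hoxc10 at 0.64 are the largest differences, and the members of groups 12 and 13 lie on both sides of 0.

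The 2 members of paralogue group 10 showed the largest differences of the set. Hoxa10 has no member, and the cluster listed under a locus name that RefSeq assigns to it differed by 0.17 (SE 0.13). In mouse, Hox10 genes suppress ribs on the lumbar vertebrae and specify lumbar motor neurons. Hoxc10 read 5.79, 6.25 and 5.85 in control replicates 1, 2 and 3 and 6.82, 6.24 and 6.76 in diabetic replicates 1, 2 and 3. Diabetic replicates 1 and 3 were above every control, and diabetic replicate 2 was level with control replicate 2. The means were 5.96 ± 0.25 and 6.61 ± 0.32 (SD, n = 3), a difference of 0.64 (SE 0.19), with an unadjusted limma p of 0.00834 and an adjusted p of 0.554. Leaving out each rat in turn, the unadjusted limma p for Hoxc10 stayed between 0.00139 and 0.0344, with differences of 0.54 to 0.83. In an ordinary linear model, which uses each gene's own spread alone, it was 0.0516.

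The Hoxd10 cluster, as given above, is longer than the RefSeq gene and may take in Hoxd11. It read 4.85, 5.80 and 4.79 in the controls and 6.60, 5.47 and 6.62 in the diabetic rats. The same arrays were high, diabetic replicates 1 and 3, and the same pair broke the separation, control replicate 2 being above diabetic replicate 2. The means were 5.15 ± 0.56 and 6.23 ± 0.66 (SD, n = 3), a difference of 1.08 (SE 0.36), with an unadjusted limma p of 0.0155 and an adjusted p of 0.579. Without diabetic replicate 2 the difference was 1.46 (unadjusted limma p 0.00149) and without control replicate 2 it was 1.41 (unadjusted limma p 0.00325). When any of the other 4 rats was left out it was 0.89 to 0.93, with unadjusted limma p-values of 0.0525 to 0.0612.

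**Figure D4:**
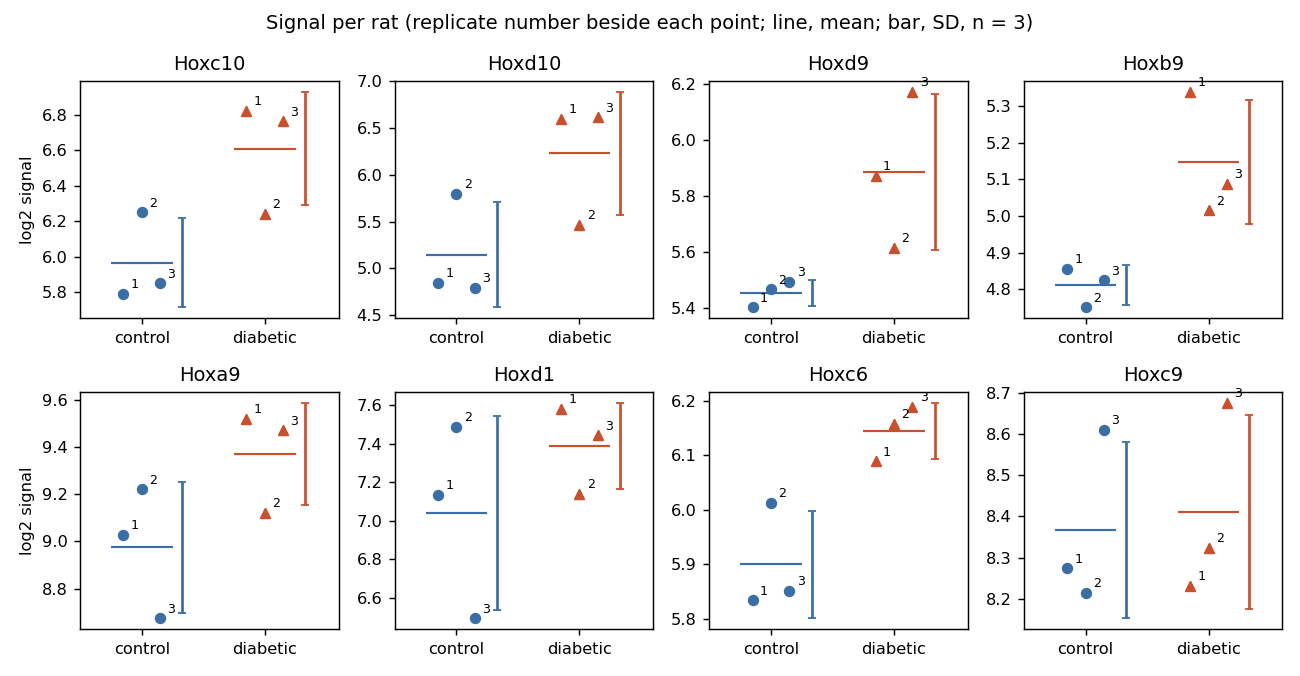
Log2 signal per rat (vertical axes, each with its own range) of 8 Hox members in control and diabetic rats; numbers beside the points are replicate numbers, horizontal lines group means and vertical bars the SD of 3 rats. In Hoxc10, Hoxd10 and Hoxa9 diabetic replicates 1 and 3 are above all controls and diabetic replicate 2 is not, while in Hoxd9, Hoxb9 and Hoxc6 all diabetic rats are above all controls.

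The paralogue 9 genes, which act at the thoracic to lumbar transition in mouse, all had higher diabetic means, with smaller differences, although that of Hoxc9 was -0.0053 with quantile normalization. The genes are grouped by symbol, and the cluster taken for Hoxc9 lies at the place of Hoxc8. Hoxd9 read 5.40, 5.47 and 5.49 in the controls and 5.87, 5.62 and 6.17 in the diabetic rats. Every diabetic rat was above every control, the controls being within 0.1 of each other, and diabetic replicate 3 was the one array above background. The difference was 0.43 (SE 0.15, unadjusted limma p 0.0167, adjusted p 0.579). Hoxb9 read 4.86, 4.75 and 4.83 in the controls and 5.34, 5.02 and 5.09 in the diabetic rats. The groups did not overlap, with diabetic replicate 1 highest, but all 6 values were below background, and the difference was 0.34 (SE 0.11, unadjusted limma p 0.0164, adjusted p 0.579). The unadjusted limma p rose to 0.0575 for Hoxd9 without diabetic replicate 3 and to 0.0684 for Hoxb9 without diabetic replicate 1. Hoxa9, whose cluster is also described as Hox-A7, read 9.03, 9.22 and 8.67 in the controls and 9.52, 9.12 and 9.47 in the diabetic rats. Diabetic replicates 1 and 3 were above the controls and diabetic replicate 2 was among them, and the difference was 0.40 (SE 0.18, unadjusted limma p 0.0533).

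The start regions of 3 genes of paralogue groups 9 and 10 are shown because the largest differences of the set lay in these groups. The cluster taken for Hoxa9 has the description and position of Hoxa7. Its difference may therefore not belong to the Hoxa9 start region shown. RefSeq promoters on GRCr8 were held for 16 of the 34 members, and those of Hoxa9, Hoxd9 and Hoxd10 are the paralogue 9 and 10 genes among them. Each is the 250 bases before the gene's start, 5′ to 3′ on the gene's strand, with capitals marking the motifs CCAAT and CACGTG and the motif TGATTTA on either strand (on the other strand CCAAT reads ATTGG and TGATTTA reads TAAATCA). Hoxa9 lies on the minus strand at chr4:82657049-82657298, Hoxd9 on the plus strand at chr3:80007756-80008005 and Hoxd10 on the plus strand at chr3:80001697-80001946.
Hoxa9: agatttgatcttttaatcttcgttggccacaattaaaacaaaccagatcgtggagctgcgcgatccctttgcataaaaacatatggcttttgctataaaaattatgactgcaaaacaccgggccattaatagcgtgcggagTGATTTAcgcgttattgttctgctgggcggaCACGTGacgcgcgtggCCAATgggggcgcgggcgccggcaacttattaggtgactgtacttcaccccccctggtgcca
Hoxd9: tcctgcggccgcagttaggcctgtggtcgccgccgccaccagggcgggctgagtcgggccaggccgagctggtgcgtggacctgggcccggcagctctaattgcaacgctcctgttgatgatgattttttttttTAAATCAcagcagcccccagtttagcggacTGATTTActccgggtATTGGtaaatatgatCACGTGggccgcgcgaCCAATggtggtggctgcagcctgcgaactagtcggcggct
Hoxd10: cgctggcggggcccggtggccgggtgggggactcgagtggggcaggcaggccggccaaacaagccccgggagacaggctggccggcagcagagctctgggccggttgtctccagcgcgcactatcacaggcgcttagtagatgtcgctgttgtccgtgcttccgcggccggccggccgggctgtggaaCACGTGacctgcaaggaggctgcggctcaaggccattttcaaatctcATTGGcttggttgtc

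The Hoxa9 window carries 1 match of each of the 3 motifs, and the Hoxd9 window 5 matches in all. In Hoxa9, TGATTTA begins 109 bases before the start, CACGTG 78 and CCAAT 62. In Hoxd9, TGATTTA on the gene's strand begins 86 bases before the start, CACGTG 56 and CCAAT on the gene's strand 40. On the other strand Hoxd9 also holds TGATTTA 116 bases and CCAAT 71 bases before the start. Hoxd10 has CACGTG 62 bases before its start and CCAAT on the other strand 15 bases before it, and TGATTTA is not in its window. The motifs were chosen after reading these sequences, with both strands searched and no marked motif overlapping another. Over all 33469 promoters of the table, 5.59% held CACGTG, 34.02% CCAAT and 2.58% TGATTTA in the same window, and 6, 10 and 2 of the 16 Hox promoters did. TTTAT, also searched, was in 39.3% of all promoters and 3 of the 16. Because the motifs came from these promoters, the Hox counts are no result, and the 2 promoters with TGATTTA are those of Hoxa9 and Hoxd9, from which it was taken. The bases themselves differed too, with a median GC content of 63% in the Hox promoters and 51.2% in all. A motif match is a description of the letters, and no binding was measured.

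Among the central members, Hoxc6, which in mouse marks forelimb-level motor neurons, had an unadjusted limma p under 0.05. It read 5.83, 6.01 and 5.85 in the controls and 6.09, 6.16 and 6.19 in the diabetic rats. Every diabetic rat was above every control, diabetic replicates 1 and 3 also passed the background of their arrays, and the difference was 0.25 (SE 0.10, unadjusted limma p 0.0437, adjusted p 0.630). Hoxb7, a trunk gene of the HoxB cluster, read 5.16, 4.67 and 4.69 in the controls and 5.14, 5.02 and 5.43 in the diabetic rats. Control replicate 1 was among the diabetic values, so the groups overlapped at a difference of 0.35 (SE 0.16). Hoxa5 read 3.90, 3.85 and 3.90 in the controls and 3.91, 4.04 and 4.12 in the diabetic rats, which did not overlap but were separated by less than 0.05 between diabetic replicate 1 and the controls. Hoxc5, a gene of the neck and forelimb levels, was dim and read 4.20, 3.74 and 3.97 in the controls and 3.82, 3.87 and 3.71 in the diabetic rats, with overlap.

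Outside the clusters that represent the members, copies of the same genes did not all follow the same rats. The copies given here were picked after seeing the data and are not independent of the members, since they may share probes or transcripts. The second Hoxa2 copy read 4.62, 4.37 and 4.78 in the controls and 4.22, 4.53 and 4.55 in the diabetic rats, with diabetic replicate 1 lowest. The brightest copy, spelled HOXA2, read 5.15, 5.18 and 5.29 in the controls and 5.25, 5.36 and 5.49 in the diabetic rats. It was below background on all arrays and differed by 0.16 (SE 0.11), in the direction opposite to the cluster taken. The contig cluster described as Hox-A5 read 7.84, 8.10 and 7.94 in the controls and 8.55, 8.19 and 8.59 in the diabetic rats. It did not overlap between groups and differed by 0.48 (SE 0.15, unadjusted limma p 0.00997, adjusted p 0.563). A contig cluster with the symbol Hoxa9 read 6.83, 6.94 and 6.37 in the controls and 7.39, 6.94 and 7.33 in the diabetic rats, a difference of 0.50 (SE 0.18, unadjusted limma p 0.0243). The Hoxc9 cluster of the RefSeq accession read 5.59, 5.53 and 5.26 in the controls and 5.73, 5.64 and 5.90 in the diabetic rats. It was higher in all 3 diabetic rats than in any control, below background in all of them, and differed by 0.30 (SE 0.13), while the brighter Hoxc9 cluster differed by 0.04 (SE 0.16).

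The remaining posterior genes gave small differences. Hoxa11, which patterns the limbs and kidney, read 6.45, 6.76 and 6.56 in the controls and 6.69, 6.70 and 6.72 in the diabetic rats, the latter lying inside the control range. Hoxc12 read 3.57, 3.29 and 3.47 in the controls and 3.12, 3.22 and 3.29 in the diabetic rats, a difference of -0.23 (SE 0.10, unadjusted limma p 0.0465) between signals that were all far below background. Its groups met, control replicate 2 and diabetic replicate 3 both being at 3.29. Hoxb13, a gene of the tail bud and prostate, read 3.60, 3.62 and 3.61 in the controls and 3.41, 3.45 and 3.50 in the diabetic rats, without overlap and also below background. Hoxd13, which patterns the digits, read 3.29, 3.36 and 3.38 in the controls and 3.39, 3.65 and 3.41 in the diabetic rats, which again did not overlap. The 16 members not described one by one differed by -0.14 (Hoxb4) to 0.20 (Hoxa3), and all overlapped between groups.

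The values above can be put as medians per rat, which restate them and add no further evidence. For each member, the deviation of a rat from that member's mean was taken, and the median over members computed. Over the 8 members of groups 9 to 11, taken by symbol, this median was -0.17, -0.02 and -0.20 in control replicates 1, 2 and 3 and 0.30, -0.05 and 0.29 in diabetic replicates 1, 2 and 3. There diabetic replicate 2 lay nearest control replicate 2. Over the 6 members of groups 12 and 13 it was -0.07, -0.02 and 0.08 in the controls and -0.04, 0.06 and -0.04 in the diabetic rats, where diabetic replicate 2 was the highest of the diabetic rats. Over all 14 posterior members it was -0.12, -0.02 and -0.06 in the controls and 0.14, -0.04 and 0.08 in the diabetic rats. Over all 34 members the medians were -0.08, -0.04 and -0.03 in the controls and 0.06, -0.03 and 0.07 in the diabetic rats. Of the 34 members, 10 were highest in diabetic replicate 1 and 9 in diabetic replicate 3.

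MicroRNA genes also lie within the Hox clusters, and miR-196 is known in mouse to target Hoxb8 and other Hox messages. The 8 precursor clusters of these microRNAs on the array hold 6 distinct sets of values, since 3 of the 4 clusters of miR-196b carry identical values. All had a lower diabetic mean. So did 18317 of the 25625 clusters of the non-coding locus type, a class that does not hold these precursors. The share over all microRNA precursor clusters was not computed. The mature sequences, from RefSeq on GRCr8 with the seed (bases 2 to 8) in capitals, show the seed that the miR-196 family shares and that of miR-10a.
rno-miR-196a-5p: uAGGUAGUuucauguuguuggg
rno-miR-196b-5p: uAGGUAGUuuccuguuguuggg
rno-miR-196c-5p: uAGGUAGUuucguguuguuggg
rno-miR-10a-5p: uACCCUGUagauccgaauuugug
Counted from the 5′ end, miR-196b differs from miR-196a by A12C and miR-196c by A12G, both outside the seed. The array measures precursor transcripts, not these mature forms.

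Mir196c, in the HoxB cluster on chromosome 10, read 6.66, 6.25 and 6.87 in the controls and 6.04, 5.87 and 5.90 in the diabetic rats. Every diabetic rat was below every control and below background, and the difference was -0.66 (SE 0.16, unadjusted limma p 0.00311, adjusted p 0.534). Mir10a, in the same cluster, was far below background and read 3.19, 3.06 and 3.33 in the controls and 3.01, 2.68 and 2.94 in the diabetic rats, a difference of -0.31 (SE 0.11). Mir196a, Mir196b and Mir615 differed by -0.11 to -0.29 with overlap between groups. The medians of the intron controls were themselves lower in the diabetic rats. They were 4.06, 4.04 and 4.21 on the control arrays and below 4 on every diabetic array, the lowest being 3.95. All 8 precursor clusters also had a lower diabetic mean with centred arrays and with quantile normalization. The part of the background in the lower precursor signals was not tested.

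Of 49 other non-coding, microRNA, pseudogene or unassigned clusters lying between the outermost members of the 4 gene clusters, 21 were higher and 28 lower in the diabetic rats, and 0 passed a limma adjusted p of 0.05. Over all clusters 38.2% had a higher diabetic mean, and the 21 to 28 split became 31 to 18 with centred arrays and 29 to 20 with quantile normalization. At an unadjusted limma p under 0.05, 4 were higher and 2 lower, where 2.73% of all clusters were higher and 5.11% lower. A pair of unannotated transcripts next to Hoxb9 on chromosome 10 was among the higher ones. The transcript named stunaw, at 84124356 to 84124991, read 6.39, 6.29 and 6.42 in the controls and 6.54, 6.70 and 6.91 in the diabetic rats, and stanaw, at 84123643 to 84124253, differed by 0.31 (SE 0.11). Both were higher in every diabetic rat than in any control, as was Hoxb9, whose cluster ends at 84123390. In HoxC, a conserved region of an intron of the long non-coding RNA HOTAIR differed by 0.31 (SE 0.10, unadjusted limma p 0.0166) at signals of 4.27 to 4.77, below background. In HoxD, LOC102553215, between Hoxd8 and Hoxd3, was above background on all arrays and read 7.91, 7.80 and 7.69 in the controls and 8.15, 7.95 and 8.09 in the diabetic rats. Its groups did not overlap, at a difference of 0.26 (SE 0.12). The transcript steechee, which ends with the Hoxd8 cluster, read 5.58, 5.34 and 5.28 in the controls and 6.07, 5.30 and 5.95 in the diabetic rats, again with diabetic replicates 1 and 3 high. In HoxA, the long non-coding RNA Mira had a mean of 7.67 and a pseudogene of the ribosomal protein L31 a mean of 12.39, and both overlapped between groups.

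Of the pathway around the Hox genes, 0 of 69 measured genes in 4 lists passed a limma adjusted p of 0.05, and 36 were higher and 33 lower in the diabetic rats. With each array centred on its median the split was 58 to 11, and with quantile normalization 43 to 26, so the balance of directions rests on the scaling. The TALE cofactors, which bind DNA together with Hox proteins, had 8 of 9 genes measured, 5 higher and 3 lower, with a median difference of 0.12. Pknox2, 1 of these cofactors, had the smallest p of the 4 lists. It read 8.85, 9.16 and 8.60 in the controls and 9.68, 9.20 and 9.58 in the diabetic rats. Every diabetic rat was above every control, though diabetic replicate 2 only just, and the difference was 0.62 (SE 0.18, unadjusted limma p 0.00926, adjusted p 0.556). Meis3 differed by 0.24 without overlap, at signals of 5.13 to 5.51 that were below background. Pbx3, another cofactor with a high mean, differed by 0.14 with overlap.

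The retinoic acid and Cdx genes, which set Hox domains in the embryo, had 19 of 20 genes measured, 6 higher and 13 lower, with a median of -0.03. Of these, Rara and Rxra, which encode retinoid receptors, differed by 0.29 and 0.23, and in both every diabetic rat was above every control. The signal of Rxra was below background on all arrays. Crabp2 and Crabp1, which encode carriers of retinoic acid inside the cell, differed by -0.28 and -0.06 with overlap. Polycomb and Trithorax genes, which keep Hox genes silent or active, had 24 of 25 genes measured, 16 higher and 8 lower, with a median of 0.06. Ezh1, the Polycomb methyltransferase of resting cells, read 12.44, 12.74 and 12.11 in the controls and 13.13, 12.53 and 12.83 in the diabetic rats, with overlap through replicates 2 of both groups. Rbbp5, a subunit of Trithorax-type complexes, differed by 0.03. The ParaHox genes and the genes that flank the Hox clusters had 18 of 19 measured, 9 higher and 9 lower, with a median of 0.00. Among the flanking genes, Nfe2l1 differed by 0.28, Cbx3 by 0.10 and Snx10 by 0.02, and Gsx2, a ParaHox gene below background, by -0.10.

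**Figure D5:**
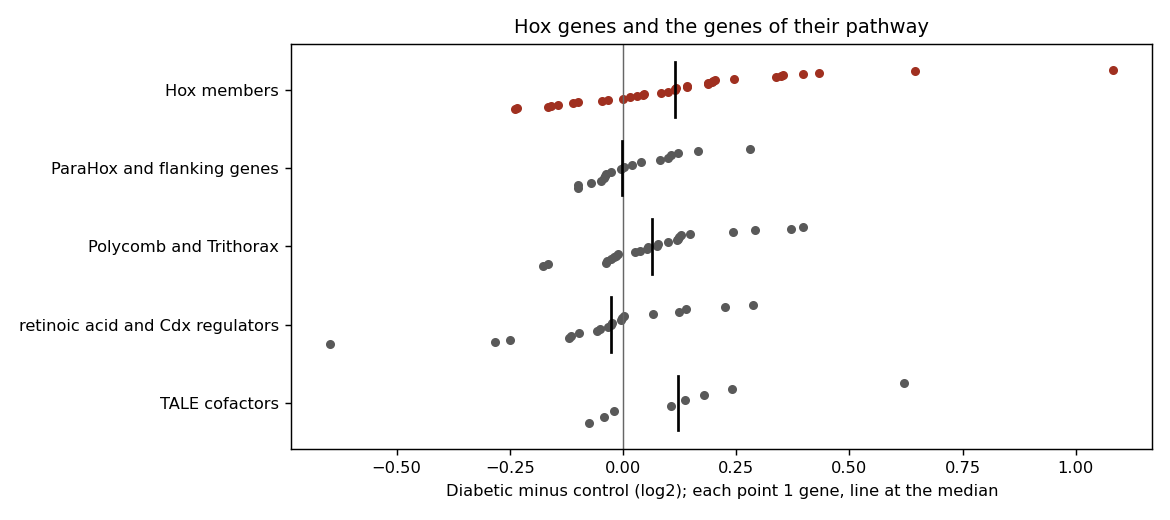
Difference between diabetic and control means (log2, horizontal axis) of the genes in 4 lists of the Hox pathway and of the 34 Hox members; each point is 1 gene and the black line the median of its list. The medians lie between -0.03 and 0.12, Hoxd10 and Hoxc10 are the rightmost Hox members, and Pknox2 at 0.62 is the rightmost pathway gene.

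Markers of several cell types also differed in mean, and of 45 measured markers 0 passed a limma adjusted p of 0.05, while 2 higher and 9 lower ones had an unadjusted p under 0.05, against 4.1% and 3.35% of coding clusters. Of 6 Schwann cell markers, 5 had a lower diabetic mean, with a median difference of -0.44, and the log2 of their summed signal was 18.59 to 18.88 in the controls and 18.05 to 18.58 in the diabetic rats. Of 5 satellite glia markers, 4 were lower, with summed signals of 15.04 to 15.50 in the controls and 14.86 to 15.30 in the diabetic rats. The diabetic mean was lower in 3 of 5 fibroblast and 3 of 3 red blood cell markers. It was higher in 3 of 3 endothelial and 2 of 3 macrophage markers (3 of 3 with centred arrays or quantile normalization). The 5 fibroblast markers differed by -2.02 to 0.25, and 2 of the lower ones had an unadjusted limma p under 0.05. Of 7 measured sensory neuron markers, 5 were higher (7 with centred arrays), with Isl1, a transcription factor of these neurons, at 11.65, 11.74 and 11.57 in the controls and 12.23, 11.95 and 12.07 in the diabetic rats. The log2 of the summed sensory neuron signal was 19.68 to 20.05 in the controls and 19.75 to 19.99 in the diabetic rats. Their part in the Hox differences was not tested. Because Hox10 genes are known from motor neurons, markers of the spinal cord were read too. The motor neuron markers Mnx1, Chat and Slc18a3 lay at 3.17 to 3.53 on all arrays, below background. The choline transporter Slc5a7 was the 1 of 8 spinal cord markers above background on every array, and it read 7.53, 7.56 and 7.17 in the controls and 8.15, 7.50 and 8.36 in the diabetic rats, with diabetic replicates 1 and 3 high as in Hoxc10 and Hoxd10. The log2 of the summed signal of the 8 spinal cord markers was 7.90 to 8.15 in the controls and 8.10 to 8.71 in the diabetic rats, most of it from Slc5a7. The median difference of the list was 0.00, with 4 higher and 4 lower (7 and 1 with centred arrays or quantile normalization). All 5 skeletal muscle markers were lower in the diabetic mean, and control replicate 2 stood apart in their summed signal, at 9.49 against 7.61 to 7.91 on the other arrays. Without that rat the differences of Hoxc10 and Hoxd10 were larger (0.79 and 1.41), and without diabetic replicate 2 larger still (0.83 and 1.46). The part of muscle tissue in these differences was not tested.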

How the data were processed

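Total RNA of pooled lumbar dorsal root ganglia from 3 diabetic and 3 control rats was hybridised to Affymetrix rat transcriptome arrays, 1 rat per array, from 100 ng of RNA per the labels' protocols. Each transcript cluster has a deposited log2 signal that, per the file headers, the authors made by gene-level SST-RMA (signal space transformation and robust multi-array averaging); RMA also stands in the submitters' processing notes. RMA equalises probe signals between arrays and can compress differences of dim clusters. The genome build is not given in the sources used here. All 423480 detection calls read absent and were not used, and the matrix and annotated tables differed in 0 cells.

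From these values, 1738 control probe sets were set aside and no other filter was applied. Diabetic minus control was fitted over all 68842 clusters with limma 3.58.1 in R 4.3.3 (group as the only term, eBayes with intensity trend, two-sided, Benjamini-Hochberg over all clusters, threshold 0.05). An exact permutation test of 3 against 3 cannot go below 0.1. On simulated data for this comparison (200 of 68842 clusters changed), 64% of 1-unit log2 changes were found beside 6 false calls, 96.5% of 2-unit changes beside 9, and 0% of 0.5-unit changes. The number of arrays limits the precision, SD is over the rats of a group and SE that of the fitted difference. The labels call the arrays biological replicates and tie each to its own rat. The correlations of same-numbered deviations between the groups were 0.04, -0.12 and -0.13, and those of differently numbered ones -0.05 to 0.15. These values show no pairing by replicate number, but with 3 rats per group they cannot exclude it.

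The members and lists were chosen with earlier results of these data known. Values per array are given for members above background on all arrays, the 8 of smallest p, those without overlap between groups and up to 2 per gene cluster with the largest range; Hoxa11 and the extra copies of HoxA genes were added after their values were seen. Of each pathway list the 2 genes of highest mean and the 2 of smallest p are named, with the 3 highest and the smallest p among other transcripts of each cluster. Markers covered sensory neurons, satellite glia, Schwann cells, spinal cord, fibroblasts, skeletal muscle, endothelium, macrophages and red blood cells. A few genes that these rules name are not reported here. RefSeq tables of GRCr8 gave names, promoters and microRNA sequences. Alternatives changed the variance model, the array weights, the scaling, the filter, the background level, the cluster taken per gene and the arrays used.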

Additional observations from a re-analysis of the deposited data

How the results depend on the processing

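The count of 0 members past an adjusted p of 0.05 was 0 in all 18 alternatives of the limma fit (lowest adjusted p 0.293, Hoxc10 without diabetic replicate 2), and so was the count for the pathway lists. The count of 6 members with an unadjusted p under 0.05 was 3 without variance moderation and 1 of 7 when only clusters above background on at least 3 arrays were kept. Leaving out each rat in turn gave 3 to 9, with 3 without control replicate 3, diabetic replicate 1 or diabetic replicate 3 and 9 without control replicate 2. The median difference of 0.11 was 0.19 with centred arrays, 0.19 over the 22 members above the median level and 0.20 over the 7 above background on at least 3 arrays, and 0.08 to 0.12 when a rat was left out. The cause of these shifts was not tested, apart from the smaller number of members under the filters. The count of 4 members above background on all arrays was 10 at the 75th percentile of the intron controls, 3 at the 95th, 0 at the 99th, 7 when 3 arrays sufficed, and 4 to 6 when a rat was left out (6 without control replicate 3). With the replicate number as a block, 4 members had an unadjusted limma p under 0.05, the median difference was 0.11 and 0 passed the adjusted threshold. No pairing by these numbers was seen, as given above.

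Direction was kept in every alternative by 27 of the 34 members. Among these 27 is Hoxa2, at -0.24 in the cluster taken, although its brightest copy, spelled HOXA2, differed by 0.16. The other 7 members had differences near 0 and changed sign at least once. Hoxb2 was 0.051 with array weights, 0.074 with centred arrays and 0.0099 with quantile normalization. Hoxb3 was 0.041 and 0.0025, and Hoxd12 0.028 and 0.0099, with centred arrays and quantile normalization. Hoxc9 was -0.0053 with quantile normalization and Hoxd3 -0.0075 with array weights. Leaving out a rat gave -0.013 to 0.12 for Hoxa13, -0.22 to 0.038 for Hoxb1, -0.10 to 0.058 for Hoxb2, -0.056 to 0.0056 for Hoxb3, -0.089 to 0.17 for Hoxc9, -0.16 to 0.054 for Hoxd12 and -0.0071 to 0.046 for Hoxd3. Signal over background limits 24 members, and 3 rats per group limit all of them.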
